A study of Mus musculus with 4 samples.

Results

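The genes described here encode feedback inhibitors of mitogen-activated protein kinase (MAPK) signalling: the dual-specificity phosphatases *Dusp1*, *Dusp4*, *Dusp5*, *Dusp6*, *Dusp7* and *Dusp10*, the Sprouty genes *Spry1*, *Spry2* and *Spry4*, and the Sprouty-related gene *Spred1*. They were chosen by name, and each was represented by the transcript with the longest gene body among those lying on the same strand of a GENCODE gene of that name. All 10 were found among the 25909 named genes, and all 10 belonged to the 11372 genes with at least 1 RPKM (reads per transcript, scaled to its length and to library depth) in at least 1 library. Total RNA of mouse embryonic fibroblasts (MEF) was sequenced with strand information, with 1 library for each combination of *Hmga2* genotype and treatment. *Hmga2* encodes an architectural chromatin protein of the high mobility group.

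All MEF were of the C57BL/6 strain, isolated at embryonic day 15.5 and immortalized with SV40, and all were starved in medium with 1% FCS. The wild-type (*Hmga2*+/+) and knockout (*Hmga2*-/-) MEF then received water (Ctrl) or recombinant human TGFB1 at 10 ng/ml, and RNA was taken after 24 h. The MEF came from wild-type and knockout embryos, so differences between the genotypes and differences between separately immortalized lines cannot be told apart. With 1 library per condition there is no replicate check and no test, and the intervals below cover counting error only.

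*Hmga2* itself was listed at 14.8 RPKM in *Hmga2*+/+ Ctrl and 40.742 RPKM in *Hmga2*+/+ TGFB1, and at 0 RPKM in both *Hmga2*-/- libraries, where 3 reads on a transcript of 1000 bases would give about 0.0530 RPKM. Depth derived from the deposited values ran from 56140000 to 57300000 mapped reads per library. Of the 7 fibroblast markers (collagens, *Vim*, *Fn1* and others), 7 passed 1 RPKM, and their summed level ran from 2310 to 2910 RPKM. Epithelial markers summed to between 0.245 and 0.928 RPKM, leukocyte markers to between 1.26 and 1.63 RPKM, and the muscle regulators *Myod1* and *Myog* were at 0 RPKM in all 4 libraries. Nearly all of the leukocyte sum was *Cd68* (between 1.25 and 1.628 RPKM), while *Ptprc* and *Itgam* stayed at or below 0.008 RPKM. The endothelial list summed to 2.78, 0.396, 5.67 and 0.751 RPKM in *Hmga2*+/+ Ctrl, *Hmga2*+/+ TGFB1, *Hmga2*-/- Ctrl and *Hmga2*-/- TGFB1. Nearly all of that sum was *Tek* (2.75, 0.33, 5.651 and 0.686 RPKM), while *Pecam1* stayed at or below 0.030 RPKM and *Cdh5* at or below 0.048 RPKM. Its level was thus lower in the TGFB1 libraries and higher in *Hmga2*-/- MEF, and its part in the results below was not tested.

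In growth factor signalling, receptors activate RAS, RAF and MEK in turn, and MEK phosphorylates the ERK MAP kinases. Sprouty and Spred proteins act early in this route, between receptor and RAF, whereas dual-specificity phosphatases remove the activating phosphates from the MAP kinases themselves. Many of these genes are themselves transcribed in response to MAPK activity, which is why they are read as feedback genes. DUSP5 and DUSP6 act on ERK in the nucleus and cytoplasm respectively, and DUSP10 acts mainly on the stress kinases p38 and JNK. TGFB1 signals mainly through SMAD proteins and also activates MAPK routes in fibroblasts.

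Promoter sequences are shown for the phosphatase gene with the largest range over the 4 libraries (*Dusp5*), for the one with the highest read support among the genes raised under TGFB1 (*Dusp6*), for the gene at least 1.5-fold higher in *Hmga2*-/- MEF in both treatments (*Dusp1*) and for the member at least 1.5-fold lower under TGFB1 (*Spry2*). A RefSeq (GRCm38.p6) window, 250 bases before to 50 bases after the gene start, was searched for 8 of the 10 members. *Dusp4* and *Spry4* were not searched. Capitals mark motif matches, searched on both strands among 32851 promoters: the AP-1 site TGACTCA (in 5.2% of all promoters), the cAMP response element TGACGTCA (1.79%), the palindromic SMAD element GTCTAGAC (0.213%), the CAGA box CAGACA (21.0%), the ETS site CCGGAAG (8.86%), the TATA box TATAAA (13.6%), the E box CACGTG (7.15%) and the CArG box bound by serum response factor (1.63%).
*Dusp5*, chr19:53528895-53529194, plus strand: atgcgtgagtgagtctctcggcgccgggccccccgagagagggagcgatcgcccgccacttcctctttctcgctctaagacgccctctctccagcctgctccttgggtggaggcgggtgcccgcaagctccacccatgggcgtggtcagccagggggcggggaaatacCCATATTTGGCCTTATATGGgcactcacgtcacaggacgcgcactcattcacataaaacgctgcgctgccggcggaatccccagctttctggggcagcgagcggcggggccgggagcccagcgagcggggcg
*Dusp6*, chr10:99262981-99263280, plus strand: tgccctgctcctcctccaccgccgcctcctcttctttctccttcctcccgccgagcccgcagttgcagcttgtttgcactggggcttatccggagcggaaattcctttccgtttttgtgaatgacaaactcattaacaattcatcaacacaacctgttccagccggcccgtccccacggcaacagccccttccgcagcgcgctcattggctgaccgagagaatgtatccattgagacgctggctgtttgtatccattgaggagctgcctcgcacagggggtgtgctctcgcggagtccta
*Dusp1*, chr17:26508423-26508722, minus strand: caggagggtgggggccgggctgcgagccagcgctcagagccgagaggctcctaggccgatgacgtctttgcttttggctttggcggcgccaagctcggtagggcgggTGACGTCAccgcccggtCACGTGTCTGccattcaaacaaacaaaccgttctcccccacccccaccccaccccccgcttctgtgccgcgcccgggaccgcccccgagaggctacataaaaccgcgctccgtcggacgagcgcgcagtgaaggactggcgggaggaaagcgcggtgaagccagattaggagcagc
*Spry2*, chr14:105896770-105897069, minus strand: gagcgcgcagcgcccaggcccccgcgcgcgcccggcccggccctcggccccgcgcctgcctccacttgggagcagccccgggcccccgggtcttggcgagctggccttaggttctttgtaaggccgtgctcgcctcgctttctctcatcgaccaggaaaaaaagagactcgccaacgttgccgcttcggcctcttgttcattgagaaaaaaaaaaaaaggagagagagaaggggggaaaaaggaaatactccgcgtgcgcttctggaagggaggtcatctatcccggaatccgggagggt
The *Dusp5* window held 2 CArG boxes side by side, with first bases at -82 and -72 from the RefSeq start; the *Dusp5* transcript in the expression table begins 173 bases downstream of that start. The *Dusp1* window held a cAMP response element at -143, an E box at -126 and a CAGA box on the opposite strand at -122, which overlaps the E box. None of the 8 motifs was found in the windows of *Dusp6*, *Spry2*, *Dusp7*, *Dusp10*, *Spry1* or *Spred1*. These letter matches are descriptions of the windows, whose GC content was 66.7%, 57.3%, 67.0% and 62.7% in the order printed, against a median of 52.7% over all promoters.

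In *Hmga2*+/+ Ctrl MEF the feedback genes were expressed at low to moderate levels, from 1.119 RPKM for *Dusp4* to 15.563 RPKM for *Spred1*, with a median of 2.73 RPKM against 6.69 RPKM for all genes compared. *Spred1* and *Spry2* led the order in both Ctrl libraries, and *Dusp4* and *Dusp5* stood at its end. Under TGFB1, *Dusp5* and *Dusp6* moved up to rank 2 and 3 in *Hmga2*+/+ MEF and to rank 1 and 3 in *Hmga2*-/- MEF. Of the 36 neighbouring pairs in the 4 orders, 11 had a ratio whose 95% counting interval included 1. Those pairs were *Spry1* with *Dusp6* and *Spry4* with *Dusp5* in *Hmga2*+/+ Ctrl, and *Dusp4* with *Dusp10*, *Dusp10* with *Dusp7*, *Spry1* with *Dusp1* and *Dusp1* with *Spry4* in *Hmga2*+/+ TGFB1. In *Hmga2*-/- MEF they were *Dusp7* with *Dusp1*, *Spry1* with *Spry4* and *Spry4* with *Dusp5* in Ctrl, and *Spry2* with *Dusp7* and *Dusp7* with *Dusp1* under TGFB1. The summed level of *Dusp4*, *Dusp5* and *Dusp6* was 4.49, 26.5, 6.17 and 34.6 RPKM in *Hmga2*+/+ Ctrl, *Hmga2*+/+ TGFB1, *Hmga2*-/- Ctrl and *Hmga2*-/- TGFB1. Over the same libraries the summed level of the Sprouty genes and *Spred1* was 29.7, 28.7, 27.6 and 25.7 RPKM. The 3 phosphatase genes of the first sum are those called higher under TGFB1 in both genotypes, so its rise is a description. The sum over all 10 members was 48.0, 66.6, 49.2 and 78.4 RPKM.

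**Figure D1:**
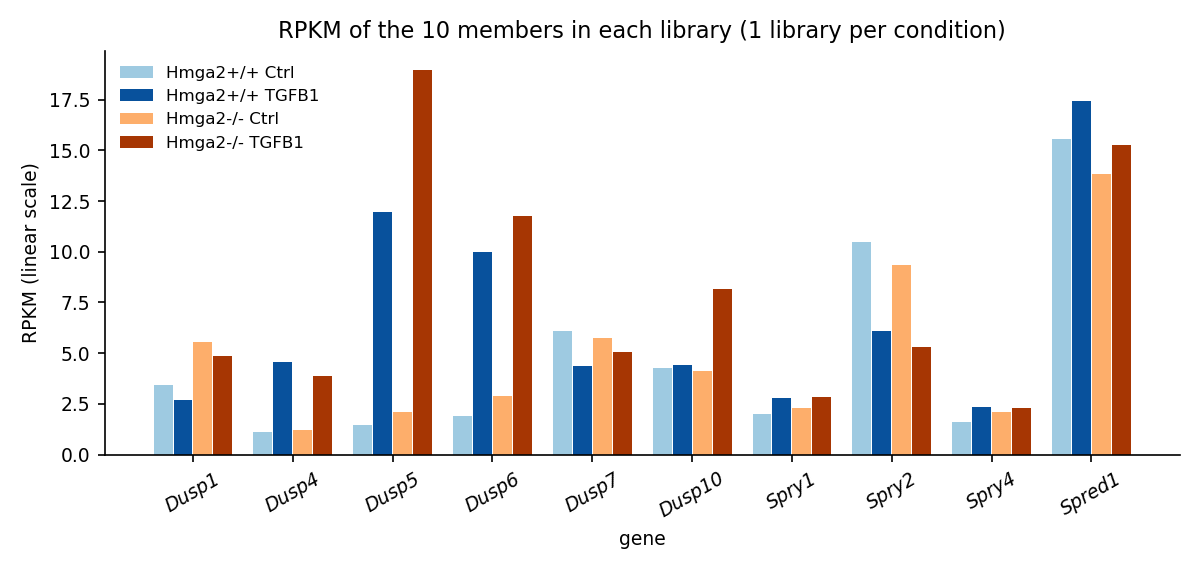
Levels in RPKM (vertical axis, linear scale) of the 10 feedback genes, with 1 bar for each of the 4 libraries. The bars of *Dusp4*, *Dusp5* and *Dusp6* are taller in both TGFB1 libraries than in both Ctrl libraries (*Dusp5* 11.965 and 18.969 RPKM against 1.474 and 2.077 RPKM), those of *Spry2* are shorter, and *Dusp10* is tall only in *Hmga2*-/- TGFB1 (8.167 RPKM).

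The first question was how these inhibitors respond to TGFB1 in each genotype. In both genotypes, 3 of the phosphatase genes, *Dusp4*, *Dusp5* and *Dusp6*, were higher under TGFB1 by between 3.24-fold and 9.13-fold, and *Spry2* was lower. A gene was called higher or lower where the ratio of RPKM reached 1.5-fold, which is a rule of size and no test. In *Hmga2*+/+ MEF, 3 of the 10 members were called higher, against 12.1% of all genes compared, and 1 was called lower, against 17.7%. In *Hmga2*-/- MEF, 4 of 10 were called higher (*Dusp4*, *Dusp5*, *Dusp6* and *Dusp10*), against 13.8% of all genes, and 1 lower (*Spry2*), against 15.9%. The median log2 change of the members was 0.32 in *Hmga2*+/+ and 0.23 in *Hmga2*-/- MEF, beside -0.05 and 0.01 over all genes compared. In such bulk RNA, fewer cells of a type and less RNA per cell cannot be told apart.

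*Dusp5* encodes an inducible nuclear phosphatase of ERK (chr19:53529318-53541322, plus strand, in mm10 like all gene positions below). It was at 1.474 RPKM in *Hmga2*+/+ Ctrl, 11.965 RPKM in *Hmga2*+/+ TGFB1, 2.077 RPKM in *Hmga2*-/- Ctrl and 18.969 RPKM in *Hmga2*-/- TGFB1. Both TGFB1 libraries lay far above both Ctrl libraries. The rise was 8.12-fold (95% counting interval 6.55 to 10.2) in *Hmga2*+/+ MEF, on 95 and 787 reads. In *Hmga2*-/- MEF it was 9.13-fold (7.64 to 11.0), on 135 and 1240 reads. Among the 11372 genes compared, these rises had rank 72 in *Hmga2*+/+ and rank 75 in *Hmga2*-/- MEF.

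*Dusp6* encodes the cytoplasmic ERK phosphatase MKP3 (chr10:99263231-99267489, plus strand). Its level was 1.895 RPKM in *Hmga2*+/+ Ctrl, 9.97 RPKM in *Hmga2*+/+ TGFB1, 2.898 RPKM in *Hmga2*-/- Ctrl and 11.762 RPKM in *Hmga2*-/- TGFB1. Again both TGFB1 libraries were above both Ctrl libraries. The change was 5.26-fold (4.65 to 5.98) in *Hmga2*+/+ and 4.06-fold (3.66 to 4.51) in *Hmga2*-/- MEF, with rank 118 and rank 179 among rises.

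*Dusp4* encodes a further inducible nuclear phosphatase, MKP2, which acts on ERK, p38 and JNK (chr8:34807610-34819894, plus strand). It was at 1.119 and 4.551 RPKM in *Hmga2*+/+ Ctrl and TGFB1, and at 1.197 and 3.875 RPKM in *Hmga2*-/- Ctrl and TGFB1. Both Ctrl libraries were close to each other and below both TGFB1 libraries. The change was 4.07-fold (3.40 to 4.89) in *Hmga2*+/+ and 3.24-fold (2.71 to 3.88) in *Hmga2*-/- MEF.

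*Dusp10* encodes MKP5, a phosphatase of p38 and JNK (chr1:184034461-184075636, plus strand). The 4 levels were 4.254 RPKM in *Hmga2*+/+ Ctrl, 4.407 RPKM in *Hmga2*+/+ TGFB1, 4.12 RPKM in *Hmga2*-/- Ctrl and 8.167 RPKM in *Hmga2*-/- TGFB1. The first 3 lay close together, and *Hmga2*-/- TGFB1 stood above them. The ratio of TGFB1 to Ctrl was 1.04 (0.929 to 1.16) in *Hmga2*+/+ and 1.98 (1.80 to 2.18) in *Hmga2*-/- MEF.

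*Dusp1* and *Dusp7* did not reach the call in either genotype. *Dusp1*, an immediate early gene for the nuclear phosphatase MKP1 (chr17:26505591-26508472, minus strand), was at 3.452 and 2.706 RPKM in *Hmga2*+/+ Ctrl and TGFB1, and at 5.55 and 4.846 RPKM in *Hmga2*-/- Ctrl and TGFB1. *Dusp7*, which encodes another cytoplasmic ERK phosphatase (chr9:106368632-106375723, plus strand), was at 6.087 and 4.37 RPKM in *Hmga2*+/+ and at 5.745 and 5.06 RPKM in *Hmga2*-/- MEF. For both genes the TGFB1 level was under the Ctrl level of the same genotype. The ratios were 0.784 (0.671 to 0.915) and 0.873 (0.776 to 0.982) for *Dusp1* and 0.718 (0.655 to 0.787) and 0.881 (0.805 to 0.963) for *Dusp7*.

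Among the Sprouty genes, *Spry2* was called in both genotypes. Sprouty proteins are membrane-associated inhibitors of receptor tyrosine kinase signalling, and SPRY2 also binds the ubiquitin ligase CBL. *Spry2* (chr14:105891947-105896819, minus strand) was at 10.47 RPKM in *Hmga2*+/+ Ctrl, 6.08 RPKM in *Hmga2*+/+ TGFB1, 9.357 RPKM in *Hmga2*-/- Ctrl and 5.309 RPKM in *Hmga2*-/- TGFB1. It was lower in both TGFB1 libraries than in both Ctrl libraries, by 41.9% in *Hmga2*+/+ and 43.3% in *Hmga2*-/- MEF, with ratios of 0.581 (0.529 to 0.637) and 0.567 (0.514 to 0.626). A shorter *Spry2* transcript of 947 bases gave log2 changes of -0.78 and -0.80, beside -0.78 and -0.82 for the reported one, and shares its reads.

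*Spry1*, *Spry4* and *Spred1* stayed under 1.5-fold in both genotypes as deposited, and after rescaling the libraries by their median ratio *Spry4* passed it in *Hmga2*+/+ MEF (log2 change 0.63 in place of 0.53). *Spry1* (chr3:37639947-37644599, plus strand) was at 2.012 and 2.806 RPKM in *Hmga2*+/+ Ctrl and TGFB1 and at 2.293 and 2.859 RPKM in *Hmga2*-/- Ctrl and TGFB1. A short *Spry1* transcript of 941 bases had a ratio of 1.72 in *Hmga2*+/+ MEF (1.457 and 2.504 RPKM), while the 4 longer ones had ratios between 1.37 and 1.43. *Spry4* (chr18:38586265-38601268, minus strand) was at 1.627, 2.355, 2.103 and 2.316 RPKM in *Hmga2*+/+ Ctrl, *Hmga2*+/+ TGFB1, *Hmga2*-/- Ctrl and *Hmga2*-/- TGFB1. Its ratio was 1.45 (1.28 to 1.64) in *Hmga2*+/+ and 1.10 (0.980 to 1.24) in *Hmga2*-/- MEF. A shorter *Spry4* transcript of 902 bases had ratios of 1.3 in *Hmga2*+/+ and 0.968 in *Hmga2*-/- MEF. *Spred1*, whose protein brings the RAS-inactivating protein neurofibromin to the membrane (chr2:117121071-117182277, plus strand), was at 15.563, 17.417, 13.836 and 15.252 RPKM in the same order. It had the smallest range of the 10 members over the 4 libraries, 0.33 on the log2 scale, against 3.69 for *Dusp5*.

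**Figure D2:**
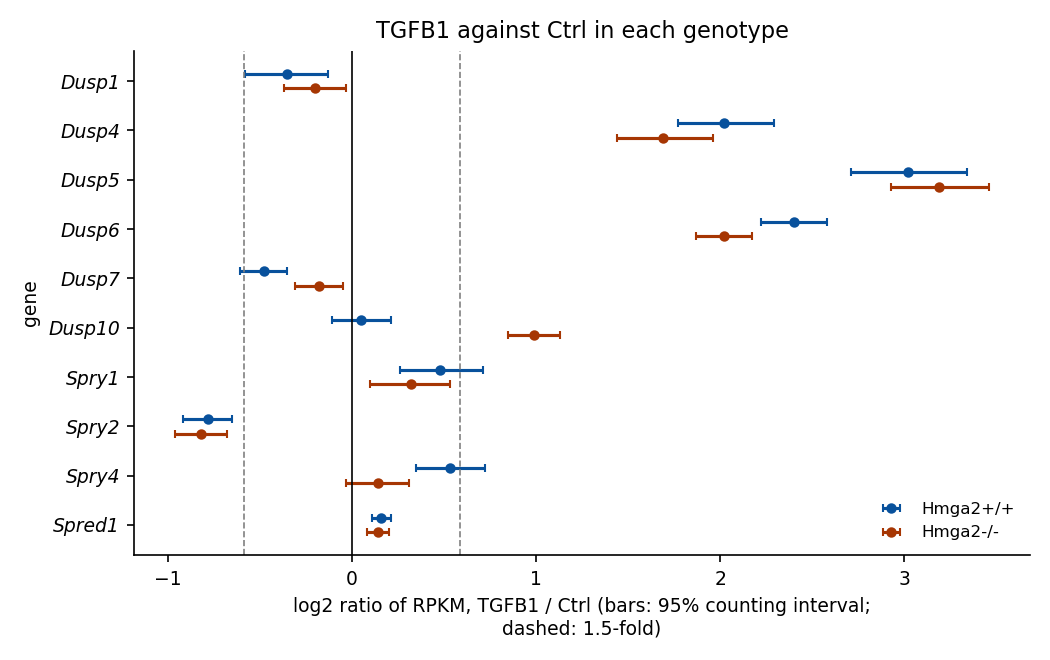
Log2 ratio of RPKM, TGFB1 over Ctrl (horizontal axis), of each feedback gene in *Hmga2*+/+ and *Hmga2*-/- MEF, with 95% counting intervals as bars and dashed lines at 1.5-fold. *Dusp4*, *Dusp5* and *Dusp6* lie to the right in both genotypes (1.69 to 3.19), *Spry2* lies to the left in both (-0.78 and -0.82), and the intervals of *Dusp10* are apart (0.05 in *Hmga2*+/+ and 0.99 in *Hmga2*-/- MEF).

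The comparisons of TGFB1 with Ctrl in *Hmga2*+/+ and in *Hmga2*-/- MEF share no library. Of all genes called higher under TGFB1, 1121 were called in both genotypes, which is 81.7% of the genes called in *Hmga2*+/+ and 71.4% of those called in *Hmga2*-/- MEF, and *Dusp4*, *Dusp5* and *Dusp6* were among them. Of those called lower, 1473 were shared, 73.2% and 81.3% of the respective lists, and *Spry2* was among them.

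**Figure D3:**
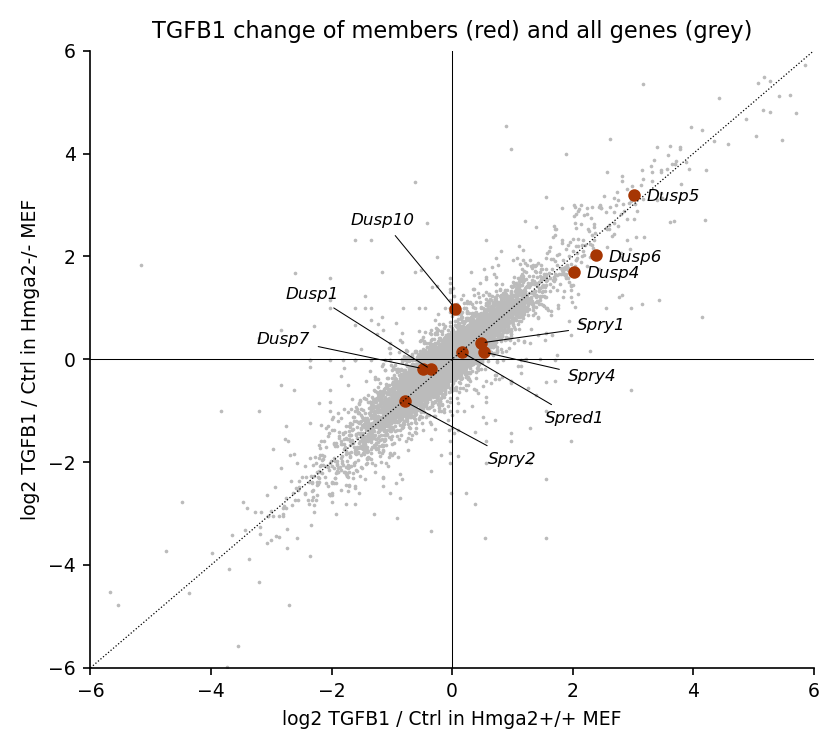
Log2 ratio of RPKM, TGFB1 over Ctrl, in *Hmga2*+/+ MEF (horizontal axis) and in *Hmga2*-/- MEF (vertical axis), with the 10 feedback genes in red over 11314 genes in grey and 58 genes beyond the axes not drawn. The dotted line marks equal change, and *Dusp10* (0.05 and 0.99) lies farthest from it among the members.

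The second question was how the genotypes differ at each treatment. *Dusp1* was higher in *Hmga2*-/- MEF both in Ctrl and under TGFB1, *Dusp6* passed the call in Ctrl alone, *Dusp5* and *Dusp10* passed it under TGFB1 alone, and no member was called lower. In Ctrl, 2 of 10 members were called higher in *Hmga2*-/- MEF (*Dusp1* and *Dusp6*), against 3.02% of all genes compared, and 0 lower, against 2.76%. Under TGFB1, 3 of 10 were called higher (*Dusp1*, *Dusp5* and *Dusp10*), against 3.9%, and 0 lower, against 2.79%. The median log2 difference of the members was 0.14 in Ctrl and 0.12 under TGFB1, beside -0.02 and 0.04 over all genes. Each of these comparisons shares a library with each comparison of TGFB1 and Ctrl. The endothelial gene *Tek* was also higher in both *Hmga2*-/- libraries (2.05-fold and 2.08-fold), and its part in these differences was not tested.

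With the levels given above, *Dusp1* was 1.61-fold higher (1.41 to 1.83) in *Hmga2*-/- than in *Hmga2*+/+ MEF in Ctrl, on 608 and 375 reads. Under TGFB1 it was 1.79-fold higher (1.55 to 2.07), on 534 and 300 reads. Both *Hmga2*-/- libraries were above both *Hmga2*+/+ libraries, and no other member showed that pattern. *Spred1* had both *Hmga2*-/- libraries below both *Hmga2*+/+ libraries, with log2 differences of -0.17 and -0.19, under the call. Of all genes, 163 were called higher in *Hmga2*-/- MEF at both treatments, 47.5% of those called in Ctrl and 36.7% of those called under TGFB1, and *Dusp1* was the 1 member among them.

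For *Dusp6* the ratio of *Hmga2*-/- to *Hmga2*+/+ MEF was 1.53 (1.32 to 1.78) in Ctrl and 1.18 (1.10 to 1.26) under TGFB1. For *Dusp5* it was 1.41 (1.08 to 1.85) in Ctrl and 1.59 (1.45 to 1.74) under TGFB1. The intervals of *Dusp6* and *Dusp5* in Ctrl, of *Dusp5* under TGFB1 and of *Dusp1* in Ctrl all include 1.5-fold. With 1 RPKM added to every value, *Dusp1* (log2 difference 0.56) and *Dusp6* (0.43) no longer passed the limit in Ctrl. *Dusp10* was 0.969-fold (0.867 to 1.08) in Ctrl and 1.85-fold (1.69 to 2.04) under TGFB1. The other 6 members lay between -0.23 (*Dusp4* under TGFB1) and 0.37 (*Spry4* in Ctrl) on the log2 scale.

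**Figure D4:**
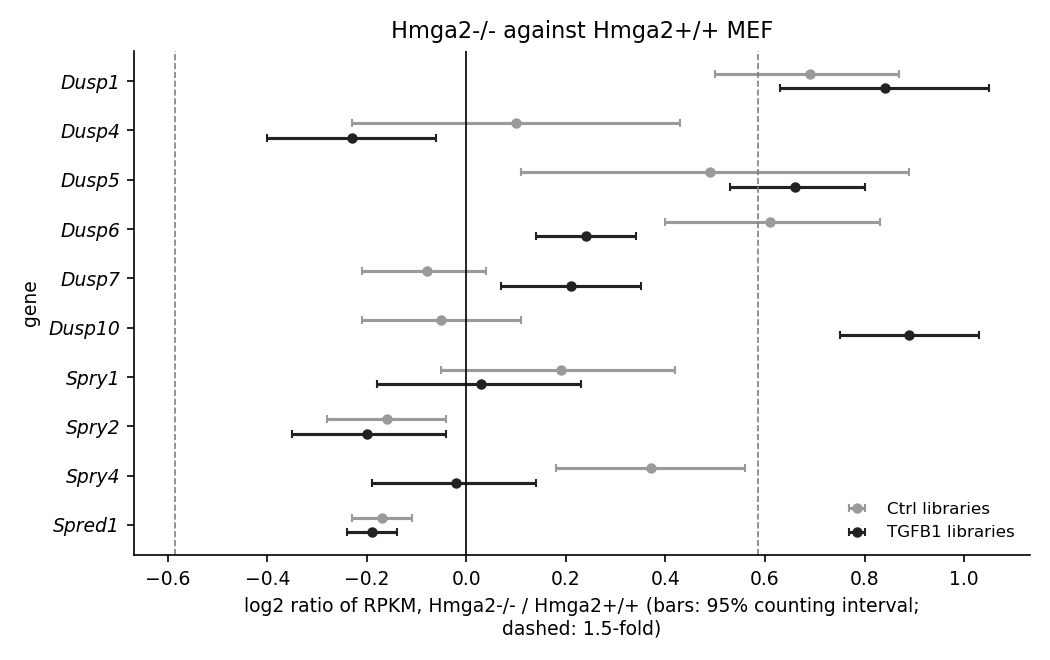
Log2 ratio of RPKM, *Hmga2*-/- over *Hmga2*+/+ MEF (horizontal axis), of each feedback gene in the Ctrl and in the TGFB1 libraries, with 95% counting intervals as bars and dashed lines at 1.5-fold. *Dusp1* lies beyond the right line at both treatments (0.69 and 0.84), *Dusp10* only under TGFB1 (0.89), and no point lies beyond the left line.

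The third comparison set the TGFB1 response of *Hmga2*-/- MEF against that of *Hmga2*+/+ MEF, as the ratio of the fold changes. Only *Dusp10* passed 1.5-fold, with a response 1.91 times as large in *Hmga2*-/- MEF (1.66 to 2.21), and it was 1 of 10 members against 3.35% of all genes called in that direction. No member passed in the other direction (0 of 10, against 2.51%). The responses of *Dusp6* (0.771, 0.657 to 0.906) and *Spry4* (a log2 difference of -0.39, -0.64 to -0.15) were smaller in *Hmga2*-/- MEF, and the ratio for *Dusp7* was above 1 (1.23, 1.08 to 1.39), beyond counting error but under the call. The interval of the other 6 members included an equal response, from 0.621 to 1.02 for *Dusp4* and from 0.853 to 1.48 for *Dusp5*. The median log2 difference of the members was -0.03, beside 0.05 over all genes.

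The other genes of the pathway were taken from lists of known members. Of the 5 MAPK phosphatase genes outside the 10, *Dusp2*, *Dusp8* and *Dusp9* stayed under 1 RPKM in all 4 libraries and were not called. Below that level, *Dusp9* was higher under TGFB1 in *Hmga2*+/+ (0.112 to 0.836 RPKM, 7.46-fold) and in *Hmga2*-/- MEF (0.177 to 0.841 RPKM, 4.75-fold). The counting intervals of its log2 changes were wide, 2.16 to 3.72 in *Hmga2*+/+ and 1.64 to 2.9 in *Hmga2*-/- MEF. *Dusp8* had ratios of 1.53 and 1.01, and *Dusp2* stayed at or below 0.076 RPKM. *Dusp16*, a phosphatase of JNK and p38, was at 4.855, 5.049, 5.148 and 5.132 RPKM in *Hmga2*+/+ Ctrl, *Hmga2*+/+ TGFB1, *Hmga2*-/- Ctrl and *Hmga2*-/- TGFB1. *Dusp14* was at 2.597, 2.834, 2.612 and 4.017 RPKM, and like *Dusp10* it passed the TGFB1 call only in *Hmga2*-/- MEF (1.54-fold, against 1.09-fold in *Hmga2*+/+), with a log2 difference between the responses of 0.49 (0.13 to 0.86). Of the Sprouty-related genes outside the 10, *Spred2* was called higher under TGFB1 in both genotypes (5.373 to 9.364 RPKM in *Hmga2*+/+ and 4.575 to 9.741 RPKM in *Hmga2*-/- MEF). *Spred3* was called in neither genotype.

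Of 7 other inhibitors of receptor and RAS signalling, 4 were called higher under TGFB1 in *Hmga2*+/+ and 3 in *Hmga2*-/- MEF, and 0 lower, beside 12.1% and 13.8% of all genes called higher and 17.7% and 15.9% called lower. The list median was 0.69 and 0.34 on the log2 scale. *Errfi1*, an inhibitor of the EGF receptor, was at 10.78 RPKM in Ctrl and 34.6 RPKM under TGFB1 in *Hmga2*+/+ MEF, and at 11.581 and 33.917 RPKM in *Hmga2*-/- MEF. *Rasa1*, a GTPase-activating protein for RAS, was at 24.613 and 67.446 RPKM in *Hmga2*+/+ and at 26.212 and 58.082 RPKM in *Hmga2*-/- MEF. *Lrig1*, which lowers receptor levels, was at 4.828 and 8.53 RPKM in *Hmga2*+/+ and at 3.476 and 9.577 RPKM in *Hmga2*-/- MEF. It was the 1 gene of this list past 1.5-fold in the difference between the responses (log2 0.64, 0.5 to 0.78).

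The kinases that these inhibitors act on were taken as a further list. Of 13 ERK cascade genes, 0 were called higher and 2 lower in *Hmga2*+/+ MEF, and 1 higher and 2 lower in *Hmga2*-/- MEF, with list medians of -0.02 and 0.08. Beside 12.1% and 13.8% of all genes called higher and 17.7% and 15.9% called lower, the 2 lower genes of this list are near the share over all genes. The 2 lower genes were *Mapk3*, which encodes ERK1 (18.035 to 9.915 RPKM in *Hmga2*+/+ and 16.224 to 9.436 RPKM in *Hmga2*-/- MEF), and the scaffold gene *Ksr1*. The gene called higher only in *Hmga2*-/- MEF was *Map2k1* (9.81 to 15.453 RPKM, against 11.352 to 13.47 RPKM in *Hmga2*+/+). Its log2 difference between the responses was 0.41 (0.27 to 0.55). Of 10 genes with at least 1 RPKM of the p38 and JNK cascades, 0 were called higher and 1 lower in *Hmga2*+/+ MEF. In *Hmga2*-/- MEF 1 was called higher and 1 lower. The list medians were 0.01 and -0.01, and these counts are near or below the shares over all genes given above. The lower gene was *Map2k6*, a kinase of p38, in both genotypes (2.688 to 0.581 RPKM and 1.913 to 0.602 RPKM). In the same list *Mapk13*, a p38 gene, was higher under TGFB1 only in *Hmga2*-/- MEF (0.841 to 1.904 RPKM, against 0.835 to 0.921 RPKM in *Hmga2*+/+), with a log2 difference between the responses of 1.04 (0.39 to 1.68). Neither of the 2 ERK5 cascade genes was called.

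Genes known as transcriptional targets of ERK were also listed. Of 11 with at least 1 RPKM, 6 were called higher and 1 lower under TGFB1 in *Hmga2*+/+ MEF, and 7 higher and 1 lower in *Hmga2*-/- MEF, with list medians of 0.72 and 1.12. Over all genes the shares called higher were 12.1% and 13.8%, and those called lower 17.7% and 15.9%. *Etv4*, an ETS transcription factor, rose 5.10-fold in *Hmga2*+/+ (0.764 to 3.894 RPKM) and 5.98-fold in *Hmga2*-/- MEF (0.651 to 3.896 RPKM). *Myc* rose 3.73-fold and 3.56-fold (to 19.305 and 25.205 RPKM). The AP-1 subunit gene *Fosl1* rose by 1.84 and 1.93 on the log2 scale (to 8.531 and 11.738 RPKM). Not all targets moved: *Etv5* (ratios 1.11 and 1.02), *Fos* (1.02 and 0.883) and *Epha4* (1.0 and 0.683) were called in neither genotype. The gene called lower was *Ccnd1*, which encodes cyclin D1 (10.606 to 6.89 RPKM in *Hmga2*+/+ and 13.237 to 5.718 RPKM in *Hmga2*-/- MEF). Its log2 difference between the responses was -0.59 (-0.72 to -0.45). *Dusp14*, *Map2k1*, *Mapk13*, *Ccnd1*, *Etv5*, *Fos* and *Epha4* were named after their values were seen. The values of *Dusp2*, *Dusp8* and *Dusp9* were also given after they were seen.

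**Figure D5:**
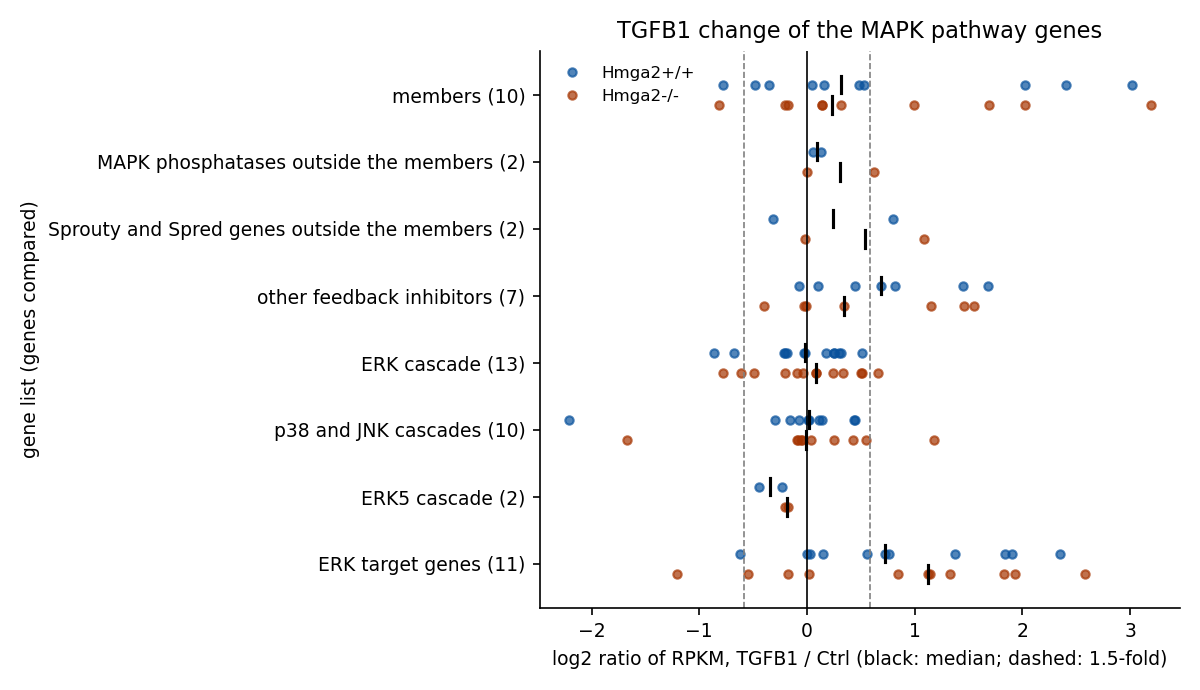
Log2 ratio of RPKM, TGFB1 over Ctrl (horizontal axis), of each gene of the MAPK pathway lists in *Hmga2*+/+ and *Hmga2*-/- MEF, with black bars at the list medians and dashed lines at 1.5-fold. The ERK target genes have medians of 0.72 and 1.12, and the ERK cascade genes medians of -0.02 and 0.08.

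The protein-coding genes with the pattern most like that of *Dusp6* and of *Dusp5* were found by the distance between centred log2 levels over the 4 libraries, among 10736 genes. Closest to *Dusp6* were *Fbln2* (76.419, 347.23, 113.677 and 460.777 RPKM; distance 0.16), *Fmod* (0.19) and *Nipal1* (0.21), and 43 genes lay within 0.5. Closest to *Dusp5* were *Htr1b* (0.2, 1.535, 0.305 and 2.498 RPKM; distance 0.15), *Ccbe1* (0.24) and *Htr2a* (0.25), and 21 genes lay within 0.5. With 4 libraries, a small distance says only that these values have like ratios.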

How the data were processed

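RNA-seq values of 4 libraries, 1 per condition, were analysed. Per the submitters' processing notes and the study's methods, HISAT2 2.1.0 mapped the trimmed reads (Trimmomatic) to mm10. The authors counted on the annotated strand with HOMER and deposited RPKM for 63759 UCSC known gene transcripts. The length in bases, also deposited by the authors, was the other column used. Per the file header reads were counted over exons, but the study's methods say genes. The study speaks of duplicates, and whether they were pooled in these columns is not given in the sources used here. Overlapping transcripts share reads.

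Transcripts were named by GENCODE vM21 genes on the same strand (57708, or 90.5%), with 1 transcript per gene, that with the longest gene body. Genes that reached 1 RPKM in any library were compared, 0 RPKM was set to 0.001, and ratios of 1.5-fold (0.58 on the log2 scale) were called. With RPKM values and no replicates, count tests were not used. Reads were derived from RPKM, length and depth, the depth being the value at which low RPKM of transcripts under 600 bases give whole reads. All of the 1238 to 1254 values tested per library lay within 0.1 of a whole read. Ratios have exact conditional binomial (Clopper-Pearson) 95% intervals, and ratios of ratios delta-method intervals. The steps were tested on simulated data.

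The 10 members, the pathway lists and the rules were chosen with earlier results of these data known. All 10 members were named, and examples from each list were the genes with the largest change in *Hmga2*+/+ MEF, with exceptions stated. *Ctgf* was matched under its current symbol *Ccn2*, and *Spry3* was not matched. Alternatives changed the value for 0 RPKM, scaling, filter, transcript and threshold. Python 3.11.15, numpy 2.4.6, pandas 2.3.3, scipy 1.17.1 and matplotlib 3.10.9 were used.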

Additional observations from a re-analysis of the deposited data

Results flagged for a closer look

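For 4 members the difference between *Hmga2*-/- and *Hmga2*+/+ MEF had opposite signs in the Ctrl and in the TGFB1 libraries, and with 1 library per condition this difference was not tested. The log2 difference for *Dusp10* was -0.05 in Ctrl and 0.89 under TGFB1, which is a change of 0.94 (0.73 to 1.14). For *Dusp4* it was 0.10 in Ctrl and -0.23 under TGFB1, a change of -0.33 (-0.69 to 0.03) that is within counting error. *Dusp7* had -0.08 and 0.21, a change of 0.29 (0.11 to 0.48). *Spry4* had 0.37 and -0.02, a change of -0.39 (-0.64 to -0.15). For none of the 4 members were both differences beyond counting error, so a reversal of sign is not shown. The counting interval in Ctrl included 0 for *Dusp10* (-0.21 to 0.11), *Dusp4* (-0.23 to 0.43) and *Dusp7* (-0.21 to 0.04). Under TGFB1 that of *Spry4* did so (-0.19 to 0.14). Opposite signs were also seen in 38.1% of all 11372 genes compared (4337 genes).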

How the results depend on the processing

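No paired analysis was possible because each condition has a single library and the labels carry no replicate numbers, and no replicate could be left out for the same reason. Member counts were within 1.5 times the reported ones in 64 of 70 recomputed values. Part of this was fixed in advance. All 10 members pass the filter, and the transcript of largest length was the reported one for each of them. Dropping the filter and taking the transcript of largest length could therefore change no member value (10 counts and 50 log2 changes each). Taking the transcript of highest mean RPKM changed the transcript of *Spry1* alone. At a 2-fold threshold the members called higher in *Hmga2*-/- MEF were 0 in Ctrl and 0 under TGFB1, those with a larger response in *Hmga2*-/- MEF 0, and those lower under TGFB1 0 in *Hmga2*+/+ and 0 in *Hmga2*-/- MEF. Those counts depend on ratios between 1.5-fold and 2-fold. With a pseudocount of 1 RPKM, which shrinks ratios of low levels, the members higher in *Hmga2*-/- Ctrl were 0 (*Dusp1* 0.56 and *Dusp6* 0.43 on the log2 scale). After median-ratio scaling the members higher under TGFB1 in *Hmga2*+/+ MEF were 4 in place of 3, with *Spry4* added at 0.63. Of 300 recomputed member log2 changes, 292 stayed within their counting interval and no called value changed sign. The 8 that moved were 7 with a pseudocount of 1 (under TGFB1, *Dusp5* 2.39 in *Hmga2*+/+ and 2.70 in *Hmga2*-/-, *Dusp6* 1.92 and 1.71, *Dusp4* 1.39 and 1.15, and *Dusp10* 0.84 in *Hmga2*-/- MEF) and *Spred1* in *Hmga2*+/+ MEF after median-ratio scaling (0.25). Counts over all genes moved by over 1.5 times in 28 of 70 values, downwards at 2-fold and with a pseudocount of 1 and upwards without a filter. Genes higher under TGFB1 ran from 595 to 3028 (reported 1372) in *Hmga2*+/+ and from 685 to 3338 (1570) in *Hmga2*-/- MEF, and genes lower from 880 to 5004 (2012) and from 842 to 4762 (1812). Genes higher in *Hmga2*-/- MEF ran from 126 to 2202 (343) in Ctrl and from 163 to 2443 (444) under TGFB1, and genes lower from 141 to 2297 (314) and from 115 to 2153 (317). Genes with a larger response in *Hmga2*-/- MEF ran from 145 to 2945 (381) and with a smaller one from 124 to 2708 (286). Scaling moved the median of all genes from -0.05 to 0.04 in the *Hmga2*+/+ TGFB1 comparison. Depth limits *Dusp5* and *Dusp4* most, with 95 and 152 reads in *Hmga2*+/+ Ctrl.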
